A study of Mus musculus with 15 samples.

Results

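The genes described here are the receptors through which the follicle reads pituitary and steroid hormones, with 1 target gene of oestrogen signalling. They are Fshr, Esr1, Esr2, Pgr, Nr3c1 and Greb1, chosen by symbol, and all 6 are among the 24656 genes of the deposited table. Every one of them passed the filter on low values and was tested with 17569 genes in all. Their RNA was measured by sequencing polyadenylated transcripts of whole ovaries from UM-HET3 mice, a genetically heterogeneous stock in which each animal has its own genotype. The 15 libraries fall into 3 groups of 5, each library from 1 ovary of 1 mouse. The labels say this of the 12-month groups, and it is taken to hold for the 6-month group, which their extraction text does not name. The canagliflozin mice were 12 months old and had been given the drug, an inhibitor of the renal glucose transporter SGLT2, since 6 months of age. The 12-month controls were untreated and of the same age, and the 6-month controls were untreated mice of the age at which the drug began. Dose and route are not stated in the labels used here. Whole ovaries hold all cell types of the organ at once.

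Follicle stimulating hormone from the pituitary acts on granulosa cells through FSHR, a receptor coupled to cyclic AMP, and drives follicle growth and the production of oestradiol. Oestradiol is bound by 2 nuclear receptors, ERα (Esr1) and ERβ (Esr2). In the mouse ovary ERβ is the granulosa cell receptor and ERα is found mainly in theca, stroma and surface epithelium. The progesterone receptor (Pgr) is induced briefly in granulosa cells by the ovulatory surge of luteinising hormone and is needed for follicle rupture. The glucocorticoid receptor (Nr3c1) is made in most cell types. GREB1 is a cofactor of oestrogen receptors, first known as an oestrogen-induced gene in human breast cancer cells.

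The promoters of Fshr, Esr2 and Greb1 are shown because Fshr and Esr2 varied together between mice and Greb1 had the smallest adjusted p for age, as described below. Each line gives the 250 bases before the RefSeq start site, 5′ to 3′ on the strand of the gene, in build GRCm38.p6. Capitals mark matches, on either strand, to GGTCA, the core of an oestrogen response element, or to the E-box CACGTG.
Fshr, chr17:89200676-89200925, minus strand: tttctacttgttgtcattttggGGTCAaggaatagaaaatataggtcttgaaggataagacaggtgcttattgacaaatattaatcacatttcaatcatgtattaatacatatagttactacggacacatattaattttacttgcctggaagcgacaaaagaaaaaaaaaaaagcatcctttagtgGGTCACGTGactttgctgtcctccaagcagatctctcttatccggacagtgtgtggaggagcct
Esr2, chr12:76177260-76177509, minus strand: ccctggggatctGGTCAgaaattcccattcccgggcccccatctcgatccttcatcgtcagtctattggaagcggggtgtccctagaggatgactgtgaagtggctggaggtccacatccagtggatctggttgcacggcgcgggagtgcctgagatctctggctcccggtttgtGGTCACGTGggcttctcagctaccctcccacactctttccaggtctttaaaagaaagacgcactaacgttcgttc
Greb1, chr12:16800887-16801136, minus strand: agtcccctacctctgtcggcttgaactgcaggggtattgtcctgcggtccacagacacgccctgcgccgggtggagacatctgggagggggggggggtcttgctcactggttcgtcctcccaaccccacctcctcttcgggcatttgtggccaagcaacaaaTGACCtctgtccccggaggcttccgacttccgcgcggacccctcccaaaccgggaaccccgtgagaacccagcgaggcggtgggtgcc
Counting back from the start site, GGTCA began at position -228 and again at -64 in Fshr, and at -238 and -75 in Esr2. In both genes the nearer GGTCA ran into an E-box, giving GGTCACGTG at -64 in Fshr and at -75 in Esr2. The joined form was searched for after these sequences had been seen. It was present in 0.858% of the 32851 RefSeq promoters of the same length, while GGTCA alone was present in 35.2% and CACGTG in 6.02%. The Greb1 window held 1 core, at -88 and on the opposite strand. Another Greb1 start site in the table had 2, and the windows of Esr1 and Pgr had none. The full oestrogen element (the core, 3 bases and its reverse complement) occurs in 0.0639% of promoters and was in none of the 7 windows of the 5 genes looked at. The same held for the glucocorticoid and progesterone response core TGTTCT, found in 16.1% of promoters, and the steroidogenic factor site CAAGGTCA, found in 1.33%, whose last 5 letters are the oestrogen core. These matches describe letters only. The share of G and C was 36.8% in the Fshr window, 56.4% in the Esr2 window and 65.2% in the Greb1 window, against a median of 52.4% over all promoters.

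Values below are the authors' normalised reads, gene reads divided by 1 size factor per library, from which whole reads could be recovered. Recovered depth ranged from 8.47 to 13.05 M reads (M, 1000000 reads) in canagliflozin libraries, from 11.3 to 13.1 M in 12-month controls and from 11.8 to 13.6 M in 6-month controls. The share of reads from mitochondrial genes was 4.84 to 9.37% with canagliflozin, 3.70 to 4.46% in 12-month controls and 2.72 to 3.19% in 6-month controls. It therefore separated the 3 groups, and its part in the results below was not tested. The most abundant granulosa cell markers, Inha, Inhbb and Inhba, averaged 20525, 8789 and 7652 normalised reads over all libraries. Foxl2 and Amh, which define granulosa cells and were picked after the values were seen, averaged 2409 and 1718, so the labelled tissue carried its defining transcripts. Differences between groups are log2 fold changes of (value + 1) from limma, fitted over all 17569 tested genes with Benjamini-Hochberg adjustment, and a gene is called when its adjusted p is under 0.05. Means are given with their SD and n = 5 per group.

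Per kilobase of exon, the genes kept nearly the same order in every mouse. Greb1 was highest, with a mean of 829 normalised reads per kb over the 15 libraries, above 95.6% of the 17293 tested genes that had an exon length. Esr2 followed with 262 per kb, above 83.7% of genes, and Fshr with 138 per kb, above 69.8%. Nr3c1 had 84.0 per kb, above 56.3% of genes, and Esr1 had 40.4 per kb, above 37.8%. Pgr was near the floor with 1.97 per kb, above 1.27% of genes. Fshr exceeded Nr3c1 in 12 of 15 libraries, and the other 14 pairs of genes kept their order in 15 of 15. ERβ transcript was thus more abundant per length than ERα transcript in all 15 ovaries. The exon lengths are those of all annotated isoforms merged, from 2.36 kb for Fshr to 13.661 kb for Esr1, so a gene used through a short isoform is understated.

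**Figure D1:**
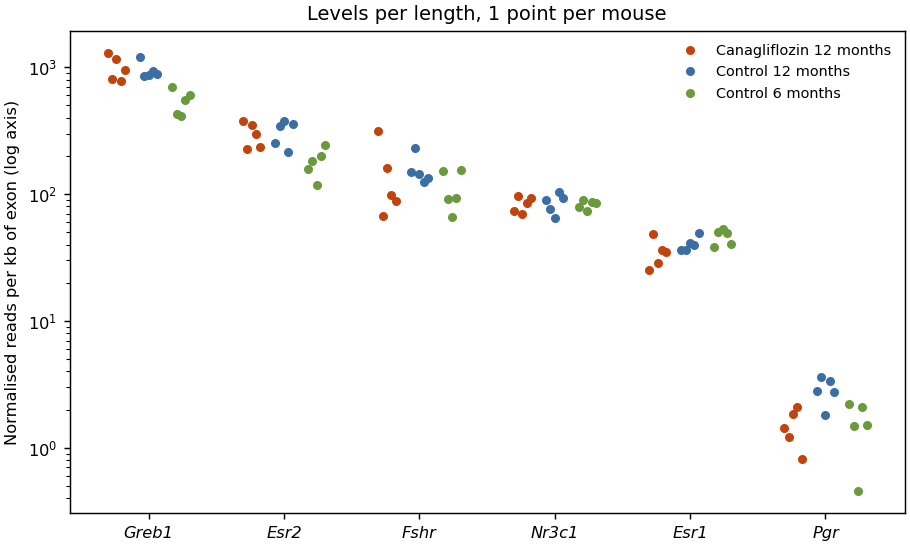
Normalised reads per kb of merged exon (log axis) for each gene, with 1 point per mouse, for canagliflozin, 12-month control and 6-month control ovaries. Greb1 lies highest and Pgr lowest in every library, and only the points of Fshr and Nr3c1 exchange places.

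Fshr on chromosome 17 (ENSMUSG00000032937, minus strand), the FSH receptor, varied more between mice than between groups. Canagliflozin ovaries had 746, 158, 379, 232 and 208 normalised reads. The 12-month controls had 352, 543, 342, 293 and 318, and the 6-month controls had 361, 215, 157, 221 and 369. The first canagliflozin mouse had the highest value of all 15, the second had nearly the lowest, and the 3 groups overlapped throughout. Means were 345 ± 239 with canagliflozin, 370 ± 99.7 in 12-month controls and 265 ± 95.01 in 6-month controls. The coefficient of variation was 69.4% with canagliflozin, 26.9% in 12-month controls and 35.9% in 6-month controls. No comparison passed the test. The log2 fold change was -0.30 for canagliflozin over 12-month controls (95% interval -1.06 to 0.46, adjusted p = 0.801) and 0.52 for 12-month over 6-month controls (-0.24 to 1.29, adjusted p = 0.376). As folds, the intervals run from 0.479 to 1.38 for the drug and from 0.845 to 2.44 for age. Differences within these ranges are not excluded. The drug value was -0.64 without canagliflozin replicate 1 (unadjusted p = 0.0413, adjusted p = 0.571 by limma) and -0.077 without canagliflozin replicate 2, and edgeR gave -0.10 and DESeq2 -0.098 with all libraries. In whole ovaries, fewer cells of a type and less RNA per cell cannot be told apart, here and in every result below.

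Esr2 on chromosome 12 (ENSMUSG00000021055, minus strand), which encodes ERβ, rose with age. The canagliflozin ovaries had 1263, 766, 1186, 1002 and 792 normalised reads. The 12-month controls had 844, 1165, 1280, 726 and 1193, and the 6-month controls had 533, 610, 396, 671 and 816. In 4 of 5 of the 12-month controls the value was above every 6-month control, and the fifth overlapped them. All canagliflozin ovaries lay within the range of the 12-month controls. Means were 1002 ± 225 with canagliflozin, 1042 ± 242 in 12-month controls and 605 ± 156 in 6-month controls. Between 12-month and 6-month controls Esr2 was 1.73-fold higher (log2 fold change 0.79, SE 0.21, 95% interval of the fold 1.28 to 2.34, adjusted p = 0.0196). Between canagliflozin and 12-month controls the log2 fold change was -0.05 (-0.49 to 0.38, adjusted p = 0.949). The age difference was not called without 12-month control replicate 3 (0.71, adjusted p = 0.0518).

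Greb1, also on chromosome 12 (ENSMUSG00000036523, minus strand), had the smallest adjusted p of the 6 for age. It had 12377, 7795, 11116, 7498 and 9163 normalised reads with canagliflozin. The 12-month controls had 11518, 8120, 8315, 8921 and 8522, and the 6-month controls had 6684, 4128, 3932, 5308 and 5788. Every 12-month ovary, treated or not, was above every 6-month ovary. The share of all tested genes whose groups are separated in this way was not counted. Means were 9590 ± 2114 with canagliflozin, 9079 ± 1395 in 12-month controls and 5168 ± 1152 in 6-month controls. The 12-month controls were 1.78-fold above the 6-month controls (log2 fold change 0.83, SE 0.17, 95% interval of the fold 1.38 to 2.28, adjusted p = 0.00539). Canagliflozin and 12-month controls overlapped, with a log2 fold change of 0.06 (-0.30 to 0.43, adjusted p = 0.919). An annotated antisense gene, Gm48140, covers 736 bases or 7.68% of the Greb1 exons on the other strand. Whether strand was used in counting is not given in the sources used here, so reads from the 2 genes cannot be told apart there.

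Of the 6 genes, Esr2 and Greb1 were the 2 called between 12-month and 6-month controls, both higher, where 12.4% of all tested genes were called in either direction. With so few members, that count is not read as a property of the set.

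**Figure D2:**
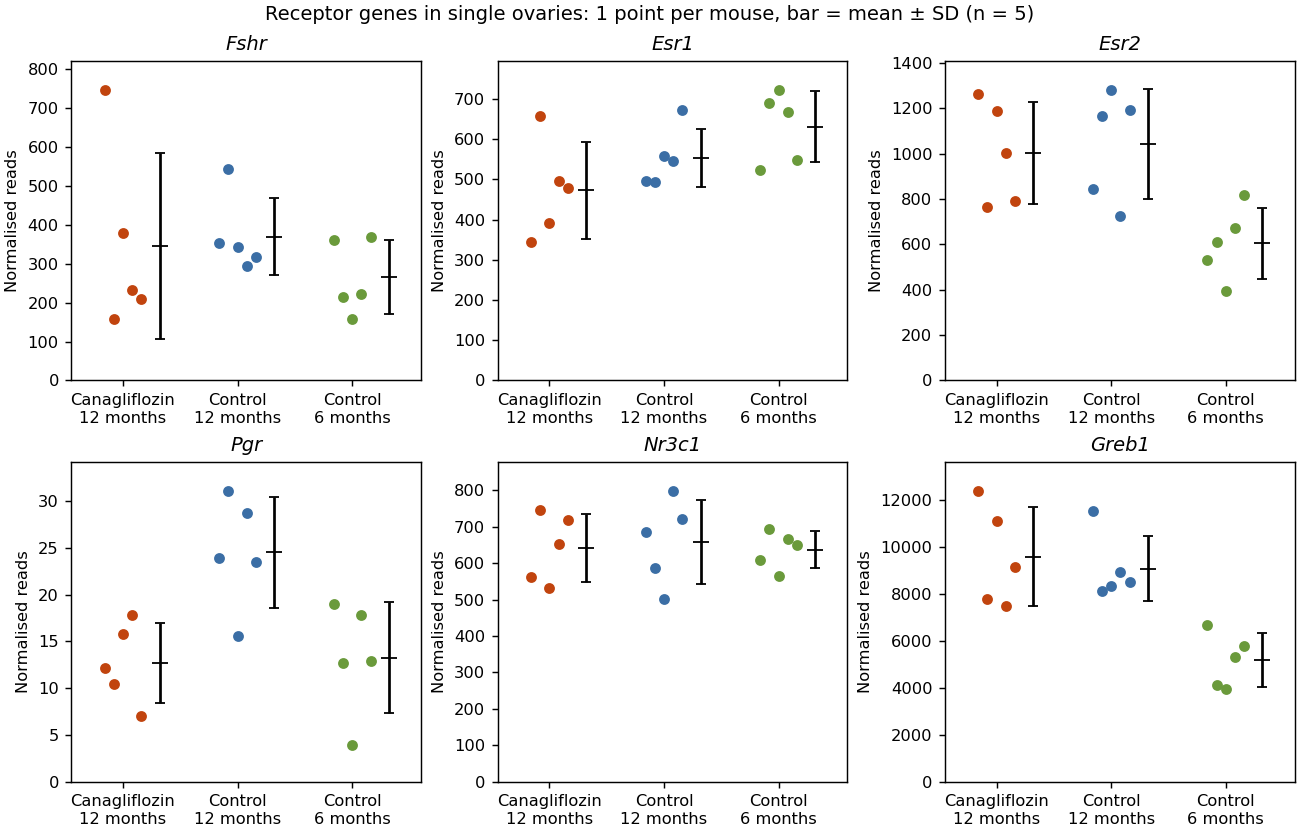
Normalised reads of the 6 genes, with 1 point per mouse and the mean ± SD (n = 5) beside each group, for canagliflozin, 12-month control and 6-month control ovaries. Greb1 has no overlap between either 12-month group and the 6-month controls, and Fshr in canagliflozin ovaries spans 158 to 746.

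Esr1 on chromosome 10 (ENSMUSG00000019768, plus strand), which encodes ERα, had its lowest mean with canagliflozin and its highest in 6-month controls. Canagliflozin ovaries had 343, 657, 391, 496 and 478 normalised reads. The 12-month controls had 496, 494, 558, 547 and 673, and the 6-month controls had 524, 690, 722, 668 and 549. All groups overlapped, although 4 of 5 canagliflozin ovaries were below every 6-month control. Means were 473 ± 120 with canagliflozin, 554 ± 72.7 in 12-month controls and 631 ± 88.2 in 6-month controls. Neither the drug comparison (log2 fold change -0.25, SE 0.15, 95% interval -0.58 to 0.07, adjusted p = 0.618) nor the age comparison (-0.19, SE 0.15, -0.51 to 0.14, adjusted p = 0.469) passed the test. The drug value was -0.38 without canagliflozin replicate 2 (unadjusted p = 0.0130, adjusted p = 0.328 by limma) and -0.15 without canagliflozin replicate 1.

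Pgr on chromosome 9 (ENSMUSG00000031870, plus strand), the progesterone receptor, rested on 4 to 32 recovered reads per library. Canagliflozin ovaries had 12.2, 10.4, 15.8, 17.8 and 7.01 normalised reads. The 12-month controls had 23.9, 31.0, 15.6, 28.7 and 23.4, and the 6-month controls had 19.0, 12.7, 3.90, 17.8 and 12.9. In 4 of 5 of the 12-month controls the value was above all 6-month and all canagliflozin ovaries, and the fifth lay among them. Means were 12.6 ± 4.30 with canagliflozin, 24.5 ± 5.94 in 12-month controls and 13.3 ± 5.94 in 6-month controls. The log2 fold change was -0.93 for canagliflozin over 12-month controls (SE 0.36, 95% interval -1.70 to -0.16, unadjusted p = 0.0208, adjusted p = 0.482 by limma). It was 0.96 for 12-month over 6-month controls (SE 0.36, 0.19 to 1.73, unadjusted p = 0.0182, adjusted p = 0.0989 by limma). Without 6-month control replicate 3, the library with 4 reads, the age value was 0.61 (adjusted p = 0.213 by limma). Neither difference was called once all tested genes were taken into account. Both share the 12-month controls, so they are not separate evidence of a pattern.

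Nr3c1 on chromosome 18 (ENSMUSG00000024431, minus strand), the glucocorticoid receptor, was the most even of the 6, with a coefficient of variation of 13.1% over all libraries. Canagliflozin ovaries had 563, 746, 532, 653 and 718 normalised reads. The 12-month controls had 685, 588, 501, 798 and 721, and the 6-month controls had 609, 694, 564, 666 and 650. The range of the 6-month controls lay within that of the canagliflozin group, and both within that of the 12-month controls, with means of 642 ± 93.6 for canagliflozin, 658 ± 116 for 12-month controls and 637 ± 51.0 for 6-month controls. The log2 fold change was -0.03 for canagliflozin over 12-month controls (95% interval -0.30 to 0.24, adjusted p = 0.954) and 0.03 for 12-month over 6-month controls (-0.23 to 0.30, adjusted p = 0.896). Its differences were thus bounded more closely than those of the other genes.

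None of the 6 genes was called between canagliflozin and 12-month controls by limma, edgeR or voom. DESeq2 called none either, but it gave Pgr no adjusted p (unadjusted p = 0.0130) and so could not call it. Pgr alone had an unadjusted p under 0.05. The background was as sparse, with 0.00569% of tested genes (1 of 17569) called by limma and 1616 at an unadjusted p under 0.05. The count ranged from 0 to 37 when single libraries were left out, and it was 37 without canagliflozin replicate 5.

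The comparison of canagliflozin with 6-month controls combines drug and age and shares libraries with both others. Here 28.4% of tested genes were called, and 3 of the 6 receptor genes. Greb1 was 1.86-fold higher (log2 fold change 0.89, SE 0.17, adjusted p = 0.00135) and Esr2 was 1.67-fold higher (0.74, SE 0.21, adjusted p = 0.0147). Esr1 was lower, at 0.738-fold (-0.44, SE 0.15, adjusted p = 0.0424). The Esr1 call was lost by edgeR (adjusted p = 0.0527) and when any 1 of 8 libraries was left out (canagliflozin replicates 1, 3, 4 and 5, 12-month control replicate 4, and 6-month control replicates 2, 3 and 4), with values down to -0.33 and adjusted p up to 0.109. Fshr (0.22, adjusted p = 0.672), Pgr (0.02, adjusted p = 0.966) and Nr3c1 (0.00, adjusted p = 0.979) were not called.

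**Figure D3:**
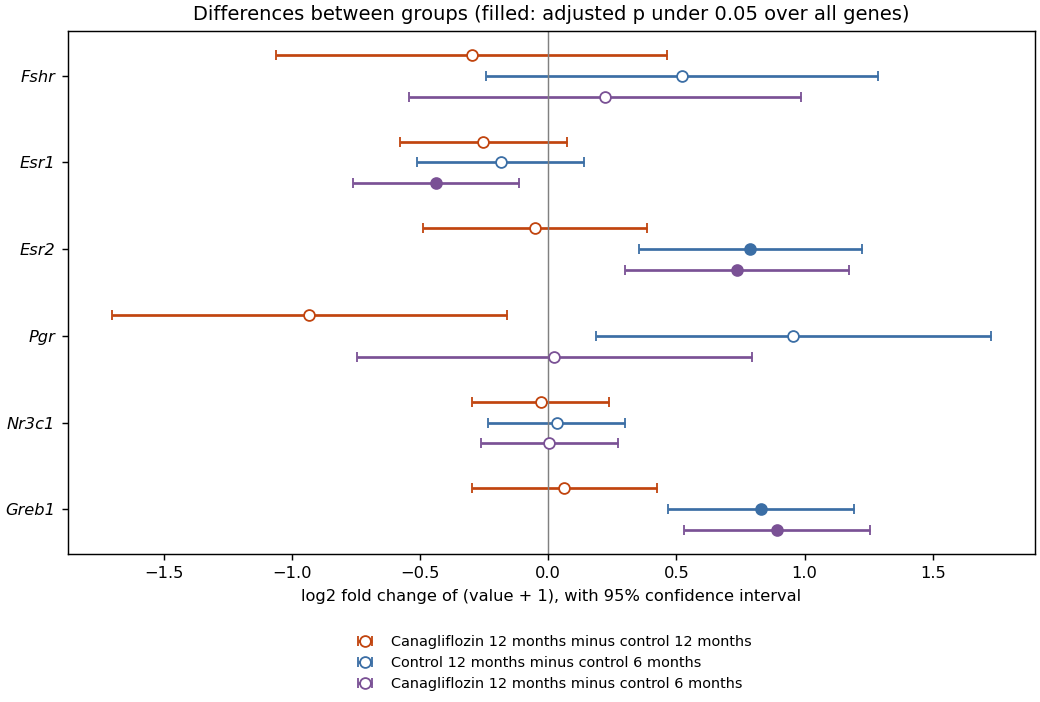
Log2 fold change of (value + 1) with its 95% confidence interval for each gene, for canagliflozin over 12-month controls, 12-month over 6-month controls and canagliflozin over 6-month controls, with filled points for adjusted p under 0.05. No interval of the first comparison is filled, and Esr2 and Greb1 are filled in both comparisons with 6-month controls.

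Within an ovary, the balance of the 2 oestrogen receptor transcripts moved toward ERβ with age. The ratio reuses values tested above, where Esr2 rose by 0.79 with age and Esr1 (-0.19, adjusted p = 0.469 by limma) was not called. Its age shift is thus mainly the Esr2 rise again and not a separate finding. The ratio of Esr1 to Esr2 normalised reads was 0.272, 0.858, 0.329, 0.495 and 0.604 in canagliflozin ovaries. It was 0.588, 0.424, 0.436, 0.753 and 0.564 in 12-month controls, and 0.984, 1.13, 1.82, 0.996 and 0.673 in 6-month controls. In 6-month controls 4 of 5 values were above every other library, and the fifth lay within the range of both older groups. Means were 0.512 ± 0.234 with canagliflozin, 0.553 ± 0.134 in 12-month controls and 1.12 ± 0.426 in 6-month controls. The log2 ratio of 12-month controls was lower than that of 6-month controls by 0.97 (-0.97, SE 0.28, 0.509-fold). An exact two-sided permutation test gave p = 0.0159, or 0.0238 adjusted over 3 comparisons, where 0.00794 is the smallest possible. Canagliflozin against 12-month controls differed by -0.20 (SE 0.33, exact permutation p = 0.556), with -0.0038 without canagliflozin replicate 1 and -0.42 without canagliflozin replicate 2. Canagliflozin against 6-month controls differed by -1.18 (SE 0.38, exact permutation p = 0.0159, adjusted 0.0238), and the adjusted p was 0.0595 without canagliflozin replicate 1 (-0.98). The ratio was not corrected for gene length, so only its differences between groups can be read.

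**Figure D4:**
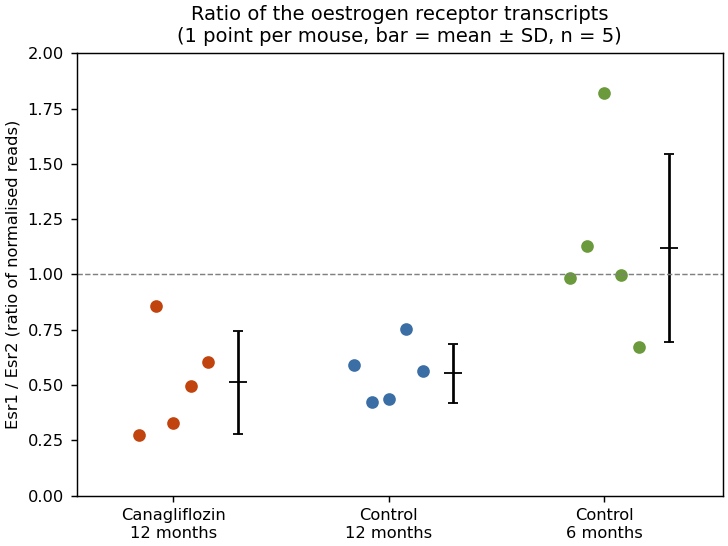
Ratio of Esr1 to Esr2 normalised reads in each ovary, with the mean ± SD (n = 5) beside each group. Canagliflozin and 12-month control ovaries all lie at or below 0.858, and 4 of 5 of the 6-month controls lie above them.

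Between mice of the same group, 4 of the 15 pairs of genes passed the test by Pearson r, 2 in the same and 2 in opposite directions, and 3 of them also passed by Spearman rho. None of the 4 held Pgr or Nr3c1. The share of pairs of other tested genes that would pass was not counted. The 4 pairs are therefore not read as particular to these receptors. After group means were subtracted, Fshr and Esr1 ran in opposite directions over the 15 libraries (Pearson r = -0.89, permutation p = 0.00029, adjusted over 15 pairs 0.00435; Spearman rho = -0.85, permutation p = 0.00064, adjusted 0.0096). Without the 2 libraries farthest from the median of Fshr, r was -0.86. The canagliflozin mouse with the highest Fshr had the lowest Esr1 of all 15 ovaries, and the one with the lowest Fshr in its group had the highest Esr1 there. Esr1 and Greb1 also ran in opposite directions (r = -0.78, permutation p = 0.00242, adjusted 0.0182; rho = -0.79, permutation p = 0.00413, adjusted 0.0207; r = -0.75 without 2 libraries). Fshr ran with Esr2 (r = 0.66, permutation p = 0.00861, adjusted 0.0370; rho = 0.74, permutation p = 0.00375, adjusted 0.0207; r = 0.63 without 2 libraries). It ran with Greb1 as well (r = 0.71, permutation p = 0.00986, adjusted 0.0370; rho = 0.68, permutation p = 0.0161, adjusted 0.0604; r = 0.78 without 2 libraries). The other 11 pairs did not pass by r within groups.

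Pooled over all libraries, with group differences left in, the r of Fshr with Esr1 was -0.73 (permutation p = 0.00179, adjusted 0.00905) and that of Esr1 with Greb1 was -0.77 (permutation p = 0.00077, adjusted 0.00905). Without the 2 outermost libraries they were -0.49 and -0.68. The rho of Fshr with Esr1 was -0.63 (permutation p = 0.0140, adjusted 0.0702) and that of Esr1 with Greb1 was -0.72 (permutation p = 0.00287, adjusted 0.0431). Fshr with Esr2 had a pooled r of 0.64 (permutation p = 0.0102, adjusted 0.0383), a rho of 0.60 (permutation p = 0.0203, adjusted 0.0760) and an r of 0.43 without 2 libraries. Esr2 with Greb1 had a pooled r of 0.73 (permutation p = 0.00181, adjusted 0.00905), a rho of 0.67 (permutation p = 0.00816, adjusted 0.0612) and an r of 0.65 without 2 libraries. Within groups the r of that pair was 0.30 (permutation p = 0.313, adjusted 0.361), so its pooled value rested on the difference between groups. A group holds 5 libraries, too few for a correlation of its own.

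**Figure D5:**
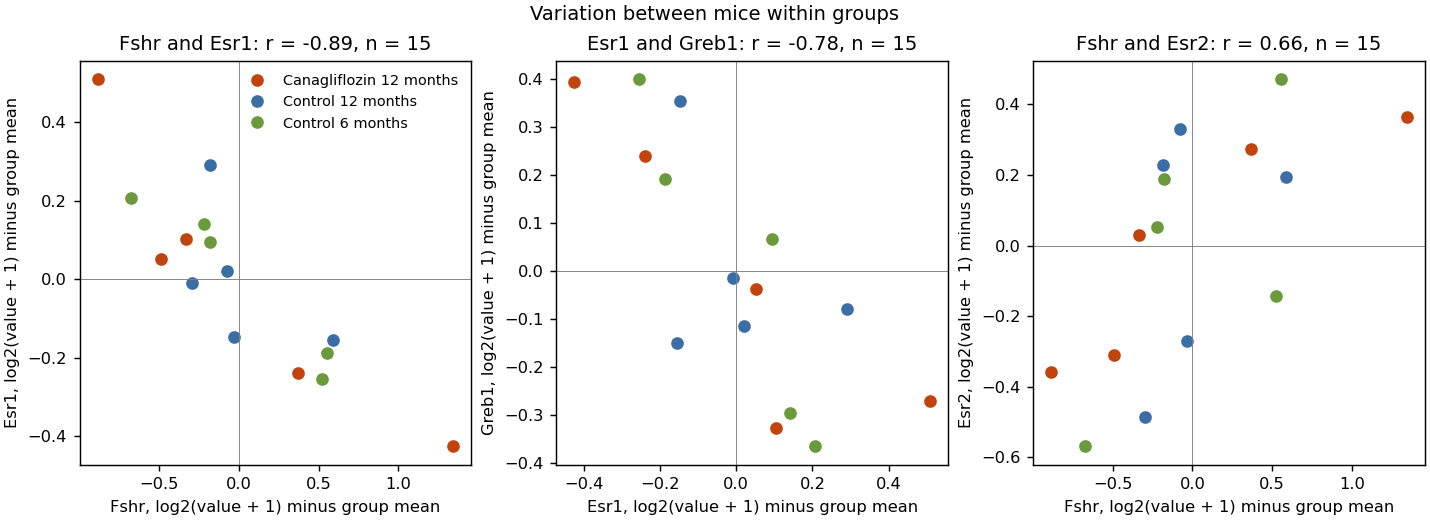
Log2(value + 1) of 3 pairs of genes after subtraction of each group's mean, with 1 point per mouse coloured by group (n = 15). Fshr and Esr1 fall along a descending line (r = -0.89), as do Esr1 and Greb1 (r = -0.78), while Fshr and Esr2 ascend together (r = 0.66).

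The genes whose profile over the 15 libraries was most like each receptor were taken as the 3 highest Pearson r values of log2(value + 1) among all tested genes with a named symbol, as a description. These r were pooled, so differences between groups are left in them. They are also the highest of all genes searched and so are high by selection. For Fshr the 3 genes were Thumpd2 (r = 0.90), Epn2 (0.89), which encodes an endocytic adaptor, and Abca4 (0.89), a lipid transporter of the retina. For Esr2 they were Bmp3 (0.93), Hjurp (0.92), a chaperone of centromeric histone, and Adamts6 (0.92), a secreted protease. Bmp3, a growth factor of the TGF-beta family, averaged 471 ± 117 normalised reads with canagliflozin, 587 ± 160 in 12-month controls and 322 ± 109 in 6-month controls. Greb1 was followed most closely by Mdn1 (0.94), a ribosome assembly ATPase, by Zfp644 (0.94) and by Comp (0.94), an extracellular matrix protein of cartilage. Comp averaged 149 ± 114 with canagliflozin, 98.3 ± 49.3 in 12-month controls and 14.4 ± 7.51 in 6-month controls. Nearest to Esr1 were Vamp2 (0.92), a vesicle fusion protein, Emc1 (0.92) and Orai3 (0.92), a calcium channel subunit. Nr3c1 had Zeb1 (0.88), a transcriptional repressor, Dcaf6 (0.87) and Kif1b (0.87), a kinesin. For Pgr, at its few reads, the values were lower, with Ces1d (0.80), Ampd3 (0.78) and Olfm2 (0.77).

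The pathway and cell type lists below are described by counts, to be read against the 12.4% of all tested genes called between 12-month and 6-month controls and the 28.4% called between canagliflozin and 6-month controls. Of 18 measured genes that FSH induces in granulosa cells, 4 (22.2%) rose between 12-month and 6-month controls and none fell, and edgeR called 3. Their differences had a median log2 fold change of 0.39 against 0.00 over all genes. Inhba, the activin subunit, averaged 9043 ± 1764 normalised reads in 12-month controls and 2519 ± 999 in 6-month controls (log2 fold change 1.93, SE 0.38, adjusted p = 0.00491). Mro rose by 1.51 (adjusted p = 0.00314), the nuclear receptor Nr5a2 by 0.75 (adjusted p = 0.0121) and the kinase subunit Prkar2b by 0.54 (adjusted p = 0.0499). Aromatase (Cyp19a1), which makes oestradiol, averaged 550 ± 220 in 12-month controls and 222 ± 158 in 6-month controls and was not called (1.51, adjusted p = 0.0631). It is given for its link to the receptors, and this choice was made after its values were seen. Canagliflozin ovaries had 6 of the 18 (33.3%, near the share of all genes) higher than 6-month controls and none lower, the other 2 being Fst (0.70, adjusted p = 0.0415) and Grem1 (1.84, adjusted p = 0.0143), both secreted binding proteins. Between canagliflozin and 12-month controls none was called by limma, edgeR or DESeq2, none had an unadjusted p under 0.05, and the median was 0.08.

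The signalling chain behind FSHR did not move one way. Of 22 genes, 3 rose and 4 fell (31.8% in all) between 12-month and 6-month controls, where edgeR called 6, with a median of -0.07. The 4 that fell were the adenylyl cyclases Adcy9 (-1.19, adjusted p = 0.0104) and Adcy3 (-0.51, adjusted p = 0.0126), the arrestin Arrb1 (-0.60, adjusted p = 0.00249) and the receptor kinase Grk6 (-0.32, adjusted p = 0.0347). The 3 that rose were the transcription factor Creb1 (0.40, adjusted p = 0.0155), Prkar2b and the adaptor Appl1 (0.37, adjusted p = 0.0471), the last named after its value was seen. Against 6-month controls 1 rose and 6 fell with canagliflozin (31.8%, near the share of all genes), among them the kinase Akt1 (-0.49, adjusted p = 0.00164). Between canagliflozin and 12-month controls none was called by limma, edgeR or DESeq2, and 1 had an unadjusted p under 0.05.

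Genes that oestradiol induces in other tissues split between directions. Of 18 measured, Greb1, Ramp3 and Nrip1 rose and Myc and Cited2 fell between 12-month and 6-month controls (27.8%), where edgeR called 3, with a median of 0.01. Ramp3, a receptor activity modifying protein, averaged 111 ± 37.2 in 12-month controls and 58.9 ± 21.7 in 6-month controls (0.92, SE 0.28, adjusted p = 0.0452). Cited2, a transcriptional cofactor, averaged 2798 ± 315 in 12-month controls and 4546 ± 1320 in 6-month controls (-0.66, adjusted p = 0.0244). Myc fell by 0.79 (adjusted p = 0.0445). Set against 6-month controls, canagliflozin ovaries had 3 higher, Greb1, Ramp3 (1.22, adjusted p = 0.00487) and the growth factor Igf1 (0.80, adjusted p = 0.0159), and lower Myc and Cited2 (27.8%, near the share of all genes). The list holds 2 of the 6 genes themselves, Greb1 and Pgr. Between canagliflozin and 12-month controls none was called by limma, edgeR or DESeq2, and the median was -0.10. The unadjusted p was under 0.05 for 2 genes (Pgr and Nrip1). DESeq2 gave Pgr no adjusted p there, so it could not call this gene.

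Of the 17 coregulators of steroid receptors counted here, 3 rose between 12-month and 6-month controls. The corepressor Ncor1 rose by 0.33 (adjusted p = 0.0115). Nrip1, a ligand-dependent corepressor, averaged 1272 ± 149 normalised reads in 12-month controls and 929 ± 50.6 in 6-month controls (0.44, SE 0.12, adjusted p = 0.0191). Sra1, the steroid receptor RNA activator, averaged 750 ± 50.4 in 12-month controls and 592 ± 22.2 in 6-month controls (0.34, SE 0.08, adjusted p = 0.0100). It was also higher with canagliflozin against 6-month controls (0.61, adjusted p = 9.62e-05), where Ncor1 rose too (0.41, adjusted p = 0.00139). Against 12-month controls no coregulator was called with canagliflozin by limma, edgeR or DESeq2, and 2 had an unadjusted p under 0.05 (Nrip1 and Sra1).

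Of 15 chaperones that hold steroid receptors in their hormone-binding state, Hsp90ab1 was the 1 called (6.67%) between 12-month and 6-month controls. It averaged 22286 ± 1350 in 12-month controls and 29696 ± 3905 in 6-month controls (-0.41, adjusted p = 0.0346). Processed pseudogene copies of Hsp90ab1 can share its reads, so its level is uncertain to that extent. In canagliflozin ovaries against 6-month controls Hsp90ab1 (-0.46, adjusted p = 0.00974) and its partner Cdc37 (-0.42, adjusted p = 0.00326) fell. Stub1 (0.55, adjusted p = 0.00634), Ptges3 (0.41, adjusted p = 0.0183) and Sugt1 (0.30, adjusted p = 0.00918) rose, 33.3% of the list in all. With canagliflozin against 12-month controls none was called by limma, edgeR or DESeq2, and 2 had an unadjusted p under 0.05.

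Of the 13 other hormone receptors counted here, the prolactin receptor Prlr rose between 12-month and 6-month controls. It averaged 7446 ± 1850 in 12-month controls and 4303 ± 909 in 6-month controls (0.78, SE 0.24, adjusted p = 0.0405). The membrane progesterone receptor Paqr8 was lower with canagliflozin than in 6-month controls (-0.59, adjusted p = 0.00586), where Prlr rose. With canagliflozin against 12-month controls none was called by limma, edgeR or DESeq2, and 2 had an unadjusted p under 0.05 (Paqr8 and Esrra).

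Few targets of the progesterone and glucocorticoid receptors were called. Of 13 progesterone targets tested, none was called between 12-month and 6-month controls by limma or edgeR, DESeq2 called 2, and 2 had an unadjusted p under 0.05. The protease Ctsl rose (0.59, adjusted p = 0.0447) and the zinc finger factor Zbtb16 fell (-1.07, adjusted p = 0.0226) between canagliflozin and 6-month controls, 15.4% of the list. Of 21 glucocorticoid targets, glutamine synthetase (Glul) fell between 12-month and 6-month controls, with 2895 ± 392 in 12-month controls and 5530 ± 1541 in 6-month controls (-0.90, SE 0.20, adjusted p = 0.00888), and was the 1 called (4.76%). Between canagliflozin and 6-month controls Glul (-1.07, adjusted p = 0.00127) and Zbtb16 fell and Lcn2 rose (1.12, adjusted p = 0.0277), 14.3% of the list. With canagliflozin against 12-month controls neither list had a call by limma, edgeR or DESeq2, and 1 progesterone and 4 glucocorticoid targets had an unadjusted p under 0.05, Zbtb16 being in both lists. Of 5 enzymes of glucocorticoid metabolism, H6pd (-0.64, adjusted p = 0.00339) and Srd5a1 (-0.88, adjusted p = 0.0193) fell between 12-month and 6-month controls (40%). Both were also lower between canagliflozin and 6-month controls, where Akr1c14 rose (0.70, adjusted p = 0.0464), which makes 60% of these 5 genes. None was called or had an unadjusted p under 0.05 between canagliflozin and 12-month controls by limma, with none called by edgeR or DESeq2. Fkbp5, Sgk1, Zbtb16, Prkar2b, Nrip1 and other genes stand in more than 1 of these lists, so the lists are not independent.

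Cell type markers were counted beside these values. Of 16 granulosa markers, which leave out the 6 genes, 2 (12.5%, the share of all genes being 12.4%) rose and none fell between 12-month and 6-month controls, Inhba and Nr5a2, which are also FSH targets above. Between canagliflozin and 6-month controls 4 rose and 2 fell (37.5%). Their summed normalised reads ranged from 54546 to 105393 with canagliflozin, from 52792 to 95551 in 12-month controls and from 38336 to 63147 in 6-month controls, beside the higher Esr2 and Greb1. Of 14 stroma markers, 5 (35.7%) fell and none rose between 12-month and 6-month controls, and 7 (50%) fell and none rose between canagliflozin and 6-month controls. Their sum ranged from 30427 to 45179 with canagliflozin, from 27548 to 54286 in 12-month controls and from 59202 to 84394 in 6-month controls. The sum mostly follows its most abundant members, the collagens Col3a1, Col1a2 and Col1a1. The log2 fold change of Esr1 was -0.44 (SE 0.15) between canagliflozin and 6-month controls and -0.19 (SE 0.15) with age. Only the first was called, and the 2 values were not tested against each other. The stroma sum was lower in both comparisons. Of the other ERα sites, 3 of 11 theca genes (27.3%, near the share of all genes) fell and none rose between canagliflozin and 6-month controls. Of 13 surface epithelium genes 1 rose and 1 fell there (15.4%). By sign alone, 7 of the 11 theca genes were negative and 10 of the 13 surface epithelium genes were positive. The share of all tested genes with each sign was not counted. Oviduct and uterus markers, from tissue rich in Esr1 and Pgr, summed to 434 to 746 with canagliflozin, 334 to 794 in 12-month controls and 363 to 433 in 6-month controls. Of the 9 tested genes of this list 1 (11.1%) rose between 12-month and 6-month controls. The defining marker Pax8 averaged 3.505 over all libraries and did not pass the filter. The most abundant members were higher, with Sox17 at 215, Ovgp1 at 81.6 and Ccdc39 at 40.7. Ovgp1 ranged from 47.5 to 211 in 12-month controls. Whether some ovaries carried oviduct tissue was not tested. The granulosa, stroma and oviduct and uterus lists had no call with canagliflozin against 12-month controls by limma, edgeR or DESeq2. None of their genes had an unadjusted p under 0.05 in that comparison. The part of these cell types in the receptor values was not tested.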

How the data were processed

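RNA of 15 mouse ovaries was sequenced as polyadenylated, directional libraries on a NovaSeq instrument, per the labels' protocols. Judged by its values, the deposited signal is a gene's read count scaled by the authors with a single size factor for each library. The submitters' processing notes name Partek 11.0 and mm39. How reads were aligned, counted (with or without strand) and normalized, and against which annotation release, is not given in the sources used here. In every library 100% of values came out as whole reads within 0.1 read or the rounding of the file, at 8.47 to 13.6 M per library (M, 1000000 reads). The read depth in the labels is far lower, and this was not resolved. Libraries of a group differed beyond counting noise in every pair (chi-square per degree of freedom 12.7 to 59.6), so each counts as 1 replicate.

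Genes reaching a value of 10 in 5 or more libraries (17569, with 7087 removed) were tested by limma 3.58.1 in R 4.3.3, with trend and robust variance, on log2(value + 1). All 15 libraries entered 1 fit without covariates, and p-values were Benjamini-Hochberg adjusted over all tested genes. The test was also run on simulated reads, drawn independently for each gene. The outcome is not reported here, and no result above relies on it. Ratios were compared by exact permutation over samples and correlations with 100000 permutations. Alternatives were pseudocounts of 0.5 and 5, other filters, edgeR 4.0.16, DESeq2 1.42.0, voom and log2 CPM on recovered reads, a fit of only the groups compared, a replicate block, and each library left out. Names, exon lengths and overlaps are from GENCODE M21 and promoters from RefSeq, both of build GRCm38, and 23888 gene identifiers matched. The Nr3c1 promoter was not used here. Foxa1, Tff1, Fos, Areg, Tat, Dnah5, Hoxa11 and Prap1 were on the lists and were not analysed here. Some other list genes are not reported here and do not enter the list counts.

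The 6 genes, the gene lists and the tests were chosen with earlier results of these data known. Named genes are the 6 in every group, the 3 tested genes most correlated with each, up to 6 called genes per pathway list by smallest p (otherwise the 2 smallest), and, per cell type, up to 3 markers by highest mean or those near 0. Exceptions are stated where they occur.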

Additional observations from a re-analysis of the deposited data

Results flagged for a closer look

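In 2 of 21 groups of 5 values tested, the highest value stood apart from the others by more than Dixon's 95% limit of 0.71 for the gap over the range, and chance flags about 1 in 20 groups. Fshr in 12-month control replicate 2 was 543 normalised reads, with a gap of 0.764 of the group's range. Greb1 in 12-month control replicate 1 was 11518 normalised reads, likewise at 0.764. The 2 values are in different mice. Without its mouse the log2 fold change of 12-month over 6-month controls was still positive for both genes, at no less than 0.35 for Fshr and 0.74 for Greb1 over all libraries left out in turn.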

How the results depend on the processing

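For the 6 genes in 3 comparisons, the Greb1 differences from 6-month controls kept their call under every alternative that was run, as did that of Esr2 between canagliflozin and 6-month controls. The Esr2 age difference (0.79) was not called with a replicate block (adjusted p = 0.0515). Esr1 between canagliflozin and 6-month controls was not called with only the groups compared (-0.44, adjusted p = 0.0686) or by edgeR (-0.41, adjusted p = 0.0527). Pgr with age was called by voom (0.91, adjusted p = 0.0452). Values near 0 that were never called changed sign: Pgr between canagliflozin and 6-month controls with a pseudocount of 5 (-0.0058) and by edgeR (-0.058), voom (-0.0074) and DESeq2 (-0.056), Esr2 between canagliflozin and 12-month controls by voom (0.098), and Nr3c1 between canagliflozin and 6-month controls by voom (-0.028). Genes called between canagliflozin and 12-month controls numbered 2 with no filter, 3 with the replicate block, 0 with only these groups (1265 at an unadjusted p under 0.05), 9 by edgeR, 18 by voom and 59 by DESeq2, and the age comparison had 3302 by voom against 2179 by limma. On the recovered reads edgeR called 2224 genes in the age comparison and 5174 between canagliflozin and 6-month controls, where limma called 4982. In the replicate block the ratio of Esr1 to Esr2 had an adjusted p of 0.0938 in both comparisons with 6-month controls (-0.97 and -1.18), and 5 pairs cannot give an unadjusted p under 0.0625. After subtraction of group means the r of Esr2 with Greb1 was 0.30, no longer past the threshold, and that of Fshr with Greb1 was 0.71, now past it. The cause of these changes was not tested.

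With single libraries left out, the drug count ran from 0 to 37. Against 12-month controls, canagliflozin values ran from -0.64 to -0.077 for Fshr, from -0.38 to -0.15 for Esr1, from -0.17 to 0.037 for Esr2, from -1.08 to -0.75 for Pgr, from -0.42 to -0.0038 for the ratio, from -0.035 to 0.15 for Greb1 and from -0.12 to 0.045 for Nr3c1. Against 6-month controls they ran from -0.57 to -0.33 for Esr1, from -0.11 to 0.44 for Fshr, from -0.052 to 0.070 for Nr3c1, from -0.32 to 0.20 for Pgr and from -1.39 to -0.98 for the ratio. Between 12-month and 6-month controls they ran from 0.35 to 0.66 for Fshr, from 0.65 to 0.91 for Esr2, from 0.61 to 1.11 for Pgr and from -0.040 to 0.13 for Nr3c1. Same-numbered libraries did not deviate together by this measure (correlations of -0.30 to 0.25, best with their own number in 2 of 15). Whether they share a factor that acts on only some genes was not tested. Pgr was left out by the stricter filter and has no value there. Its 4 to 32 reads per library limit what can be said of it.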

Other observations

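Other cell type lists were counted in the same ovaries, to be read against 12.4% of all tested genes called between 12-month and 6-month controls and 28.4% between canagliflozin and 6-month controls. Between 12-month and 6-month controls, 3 of 12 smooth muscle genes fell and none rose, and between canagliflozin and 6-month controls 6 fell and none rose. Of 9 tested fat cell genes, 5 rose and none fell with age (55.6%). The 5 are the least abundant of the 9 by mean over all libraries. The lipid droplet gene Plin4, its most abundant, averaged 4489 ± 2665 normalised reads in 12-month controls and 7661 ± 5309 in 6-month controls (log2 fold change -0.73, adjusted p = 0.516 by limma). The next in mean, the nuclear receptor Pparg, averaged 436 ± 40.01 in 12-month controls and 357 ± 100.545 in 6-month controls (0.34, adjusted p = 0.32 by limma), and Plin1 averaged 321 ± 194 in 12-month controls and 365 ± 96.4 in 6-month controls (-0.31, adjusted p = 0.554 by limma). With canagliflozin against 6-month controls 5 fat cell genes rose and Plin1 fell. Of 12 immune genes 3 rose and 2 fell with age. Of 12 luteal genes 1 rose with age and 2 rose and 1 fell between canagliflozin and 6-month controls. Of 13 endothelial genes 2 fell with age, and 3 rose and 2 fell between canagliflozin and 6-month controls. None of 11 theca, 14 oocyte or 5 red cell genes was called with age by limma, edgeR or DESeq2, with 2, 0 and 0 at an unadjusted p under 0.05. Between canagliflozin and 6-month controls 3 theca and 2 oocyte genes fell, and no red cell gene was called by limma, edgeR or DESeq2 or had an unadjusted p under 0.05. Of 13 surface epithelium genes 1 rose and 1 fell with age and likewise between canagliflozin and 6-month controls.

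Between canagliflozin and 12-month controls, all 13 surface epithelium genes lay above 0 on the log2 fold change scale, at a median of 0.45 against -0.00 over all tested genes. None was called by limma, edgeR or DESeq2, and 3 had an unadjusted p under 0.05. The mean of their log2 values ranged from 7.50 to 8.69 with canagliflozin and from 6.999 to 8.02 in 12-month controls. A lean to 1 side was not particular to this list. Of 13 endothelial genes 12 were positive (median 0.26), as were all 5 red cell genes (median 1.19). Of 14 oocyte genes 12 were negative (median -0.36), as were 11 of 14 stroma genes (median -0.16). None of the other lists named here had a call by limma or edgeR in that comparison, and DESeq2 called 1 endothelial gene. At an unadjusted p under 0.05 there were 6 endothelial, 3 oocyte, 2 theca, 1 immune and 1 fat cell gene, and none in the luteal, smooth muscle and red cell lists.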
